A study of Homo sapiens with 6 samples.

Results

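Metallothionein genes of WM266.4 melanoma cells were examined together with MTF1 and SLC30A1, which encode the zinc-sensing transcription factor that switches metallothioneins on and a zinc exporter. The set was chosen by gene symbol and held 9 of the 24526 genes in the table: the metallothioneins MT1E, MT1F, MT1G, MT1M, MT1X, MT2A and MT3, and MTF1 and SLC30A1. WM266.4 cells are an established line grown from a human melanoma. RNA was taken 48 h after transfection from 3 cultures that received siRNA against RIPK4 (RIPK4.si) and 3 that received a negative control siRNA (neg.si), so every culture had been transfected. Silencing was transient and used a single siRNA sequence, and mRNA was selected by its poly(A) tail and sequenced as read pairs. The comparison asks which transcripts differ when this kinase is lowered.

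Metallothioneins are small proteins in which many cysteines bind zinc, copper and cadmium. Free zinc activates MTF1, which then binds metal response elements in the promoters of metallothionein genes and of SLC30A1. The protein made from SLC30A1 moves zinc out of the cell, while metallothioneins hold it inside, so that both lower free zinc in the cytosol. Glucocorticoids, oxidants and heavy metals also induce several metallothioneins. MT3 is best known from the brain, and MT2A is usually the most abundant form in human cells.

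The libraries held between 28464057 and 31688095 counts on genes. RIPK4 itself had 26.8% of the neg.si level in RIPK4.si (log2 fold change -1.90, adjusted p = 0.0102 with edgeR), and no RIPK4.si library reached a neg.si library. Its adjusted p was 0.0622 to 0.106 without neg.si replicate 2 or without any 1 of the RIPK4.si libraries. All 9 markers of the melanocyte lineage had a mean above 1 CPM (counts scaled to a common normalized library size). Of the markers of keratinocytes, fibroblasts, leukocytes and endothelial cells, KRT10 and COL1A2 alone did. The summed fibroblast markers, nearly all COL1A2, were at 634 to 818 CPM in neg.si and 512 to 1041 CPM in RIPK4.si. Summed over the 9 lineage markers, the level was 3601 to 4050 CPM in neg.si and 2662 to 2798 CPM in RIPK4.si, and the part of this in the results was not tested. Replicate 3 of neg.si lay farthest out on the first principal component. It also differed in how level followed GC content across genes, with a rank correlation of -0.547 against 0.555 in neg.si replicate 1. Values listed by library follow the order of replicates 1, 2 and 3.

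All 7 metallothioneins lie within 95.1 kb on chromosome 16 of GRCh38, from 56589074 to 56684196, with MT1G on the minus strand and the other 6 on the plus strand. MTF1 (37809574 to 37859592) and SLC30A1 (211571568 to 211579161) lie on the minus strand of chromosome 1. RefSeq's table of promoters held 4 of the 9 members, namely MT2A, MT1X, SLC30A1 and MTF1. The 250 bases before the start site are shown for MT2A and MT1X, the metallothioneins with an entry, and for SLC30A1, the other classical target of MTF1. Capitals mark the core of the metal response element, searched as TGCACNC and TGCGCNC on both strands. The windows are from GRCh38.p14 and are written 5′ to 3′ on the strand of the gene, chr16:56608334-56608583 (plus) for MT2A, chr16:56682220-56682469 (plus) for MT1X and chr1:211579162-211579411 (minus) for SLC30A1.
MT2A: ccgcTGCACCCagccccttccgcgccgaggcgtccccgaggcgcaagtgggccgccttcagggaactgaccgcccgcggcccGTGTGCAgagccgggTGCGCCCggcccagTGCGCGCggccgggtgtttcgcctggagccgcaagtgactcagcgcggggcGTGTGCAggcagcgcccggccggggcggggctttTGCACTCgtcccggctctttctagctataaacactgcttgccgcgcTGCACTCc
MT1X: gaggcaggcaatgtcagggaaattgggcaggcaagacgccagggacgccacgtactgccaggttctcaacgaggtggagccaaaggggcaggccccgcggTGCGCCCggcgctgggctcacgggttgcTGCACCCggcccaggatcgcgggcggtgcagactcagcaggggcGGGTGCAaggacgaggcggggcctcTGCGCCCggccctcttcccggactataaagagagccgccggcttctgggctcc
SLC30A1: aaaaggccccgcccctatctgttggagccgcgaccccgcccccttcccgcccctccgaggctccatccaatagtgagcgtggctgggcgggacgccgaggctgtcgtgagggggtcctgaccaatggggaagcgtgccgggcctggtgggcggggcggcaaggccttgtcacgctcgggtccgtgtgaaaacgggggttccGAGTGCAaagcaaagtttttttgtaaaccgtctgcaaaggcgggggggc

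The MT2A window held 7 cores, which began 246, 168, 153, 139, 88, 54 and 8 bases before the start site. The MT1X window held 4, at 150, 122, 78 and 53 bases, and that of SLC30A1 held 1, at 49 bases. No core was found in the 250 bases before MTF1. Of 35116 promoter windows of the same length, 24.8% held at least 1 core, 1.58% at least 3 and 0.120% at least 5. A match of these letters describes the sequence and does not show that a factor bound there.

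Of the 9 members, 6 passed the filter on low counts and were tested among 16297 genes with edgeR's quasi-likelihood test. MT1F, MT1G and MT1M did not pass. No member had a Benjamini-Hochberg adjusted p-value under 0.05 with edgeR, against 0.767% of all genes tested. MT1E, MT1X and SLC30A1 had an unadjusted p-value under 0.05, as did 1768 of the 16297 genes. DESeq2, the tool used in the study, called MT1E and MT1X, against 2.91% of the 15015 genes to which it gave an adjusted p-value. MT1X entered the edgeR test through its RIPK4.si libraries alone, the group where it is high, so its place in these counts is a description. From whole cultures, a change in the share of cells that make a transcript and a change in the amount per cell cannot be told apart.

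**Figure D1:**
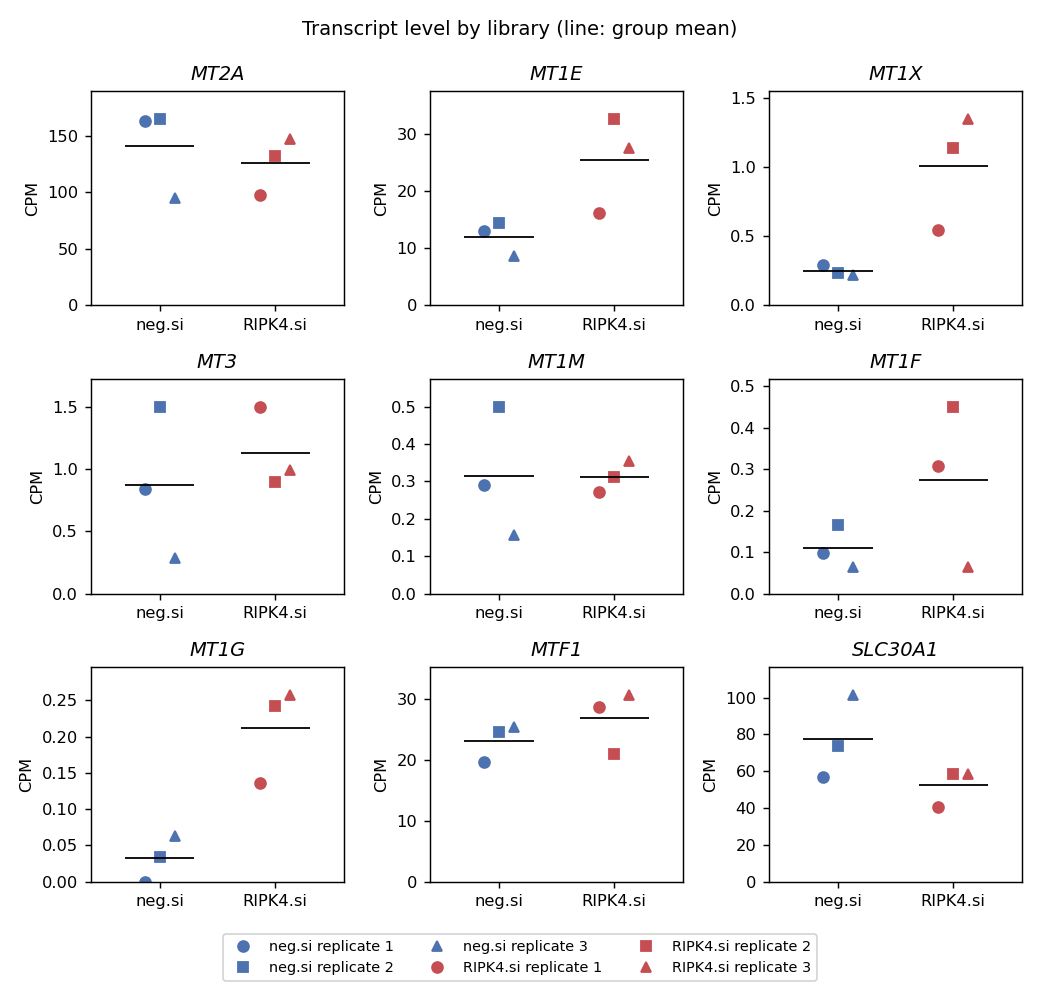
Transcript level of the 9 members in CPM (scaled counts, y axis from 0, own scale per gene) in the 3 neg.si (blue) and 3 RIPK4.si (red) libraries, with symbols for replicate numbers and a line at each group mean. The groups are apart for MT1E, MT1X and MT1G, and overlap for the other 6 genes. MT1G did not pass the filter on low counts and MT1X passed it through RIPK4.si alone. Of all genes tested, 17.6% were apart in either direction.

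MT1E, at 56625475 to 56627112, was the second most abundant metallothionein. Its level was 13.05, 14.4 and 8.63 CPM in neg.si and 16.2, 32.6 and 27.6 CPM in RIPK4.si, from 274 to 943 counts. Every RIPK4.si library lay above every neg.si library, although replicate 1 of RIPK4.si was close to the neg.si range. The means were 12.0 ± 3.01 CPM (SD, n = 3) and 25.5 ± 8.42 CPM (SD, n = 3). The log2 fold change was 1.08 (standard error, SE, 0.285, 95% interval 0.44 to 1.72) with an adjusted p of 0.148 from edgeR. DESeq2 gave an adjusted p of 0.0116. Over all alternatives the edgeR and DESeq2 adjusted p-values ran from 0.0116 to 0.526, and the log2 fold change with 1 library left out ran from 0.87 to 1.34.

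MT1X had few reads and passed the filter on low counts through its RIPK4.si libraries alone, so its place among the tested members was set by the group where it is high. Without a filter its log2 fold change was 2.03 with an adjusted p of 0.0950 from edgeR. Its counts were 9, 7 and 7 in the neg.si libraries and 16, 33 and 42 in the RIPK4.si libraries, which is 0.291, 0.233 and 0.220 CPM against 0.545, 1.14 and 1.35 CPM. The groups did not overlap, and replicate 1 was again the lowest of RIPK4.si. The log2 fold change was 2.01 (SE 0.449, 95% interval 1.003 to 3.03), with an adjusted p of 0.0909 from edgeR and 0.0230 from DESeq2. Adjusted p-values ran from 0.0230 to 0.489 over the alternatives. Of the 100-base windows of its annotated transcripts, 11.6% also occur in an overlapping gene on the same strand, ENSG00000259827, so reads from those windows cannot be assigned to either gene by sequence.

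MT1E and MT1X were the tested members whose groups were apart, where 17.6% of all genes tested were apart in either direction. For MT1X this is a description, since the filter let it in through the group where it is high. Over the 6 libraries, log2 CPM of MT1E and MT1X had a Pearson correlation of 0.93, while that of MT1E and MT2A was 0.33. Without neg.si replicate 3, an alternative chosen after seeing the data, these were 0.94 and -0.16. These values describe 6 libraries that differ in treatment and in GC trend.

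MT2A, at 56608584 to 56609497, was by far the most abundant metallothionein, and its groups overlapped. The level was 163, 165 and 95.04 CPM in neg.si and 97.8, 132 and 148 CPM in RIPK4.si. The lowest library of each group was at a similar level. The means were 141 ± 39.9 CPM and 126 ± 25.6 CPM (SD, n = 3 each). The log2 fold change was -0.16 (SE 0.240, 95% interval -0.70 to 0.38, adjusted p = 0.915 with edgeR), so the interval reaches from a fall by 0.70 to a gain of 0.38 on the log2 scale. Without neg.si replicate 3, the lowest control library, it was -0.38 with an adjusted p of 0.388, and without RIPK4.si replicate 1, the lowest of that group, it was -0.0013.

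MT3 had 0.840, 1.498 and 0.283 CPM in the neg.si libraries and 1.499, 0.8999 and 0.997 CPM in the RIPK4.si libraries. The groups overlapped, and the log2 fold change of 0.38 (SE 0.515, adjusted p = 0.903 with edgeR) became -0.04 without neg.si replicate 3.

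MT1F, MT1G and MT1M were near the limit of detection. A count of 3, taken here as the floor, corresponds to between 0.0944 and 0.104 CPM in these libraries. MT1G had 0, 1 and 2 counts in the neg.si libraries and 4, 7 and 8 counts in the RIPK4.si libraries. The groups were apart, and the ratio of the summed counts, scaled to library size, was 6.58 (exact 95% interval 1.94 to 34.7). This interval, like the others from summed counts, covers counting error only and not the spread between cultures. Tested with edgeR without a filter, MT1G had an adjusted p of 0.432. MT1F had 3, 5 and 2 counts in neg.si and 9, 13 and 2 counts in RIPK4.si, a ratio of 2.49 (exact 95% interval 1.149 to 5.84) with overlapping groups. MT1M had 9, 15 and 5 counts in neg.si and 8, 9 and 11 counts in RIPK4.si, a ratio of 1.003 (exact 95% interval 0.575 to 1.75).

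**Figure D2:**
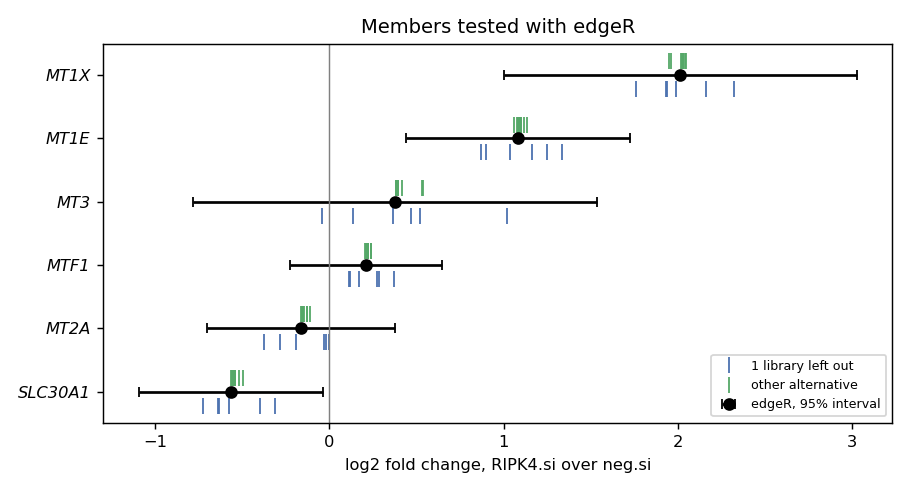
Log2 fold change (x axis, RIPK4.si over neg.si) of the 6 members tested with edgeR, with 95% intervals in black, values with 1 library left out as blue ticks and values under the other alternatives as green ticks. The intervals of MT1X (1.003 to 3.03) and MT1E (0.44 to 1.72) lie above 0 and that of SLC30A1 (-1.09 to -0.03) below 0 before adjustment for the number of genes tested, and the other 3 hold 0.

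MTF1 and SLC30A1 were measured with more counts. MTF1 had 19.5, 24.5 and 25.3 CPM in neg.si and 28.7, 21.0 and 30.6 CPM in RIPK4.si. The groups overlapped, with a log2 fold change of 0.21 (SE 0.193, 95% interval -0.22 to 0.65, adjusted p = 0.820 with edgeR). The zinc exporter SLC30A1 had 56.8, 73.8 and 101 CPM in neg.si and 40.5, 58.3 and 58.3 CPM in RIPK4.si. The lowest neg.si library was below the 2 higher RIPK4.si libraries, and the log2 fold change was -0.56 (SE 0.235, 95% interval -1.09 to -0.03, unadjusted p = 0.0392, adjusted p = 0.420 with edgeR). Its adjusted p-value ran from 0.0926 to 0.794 over the alternatives, and its log2 fold change was -0.31 without neg.si replicate 3.

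The GC trend of the libraries moved with part of these values. SLC30A1 is AT-rich, with 40.7% GC in its longest transcript, and in neg.si replicate 3 it stood 0.70 above its mean over libraries on the log2 scale, where the trend of that library at this GC content was 0.26. MT1E, with 53.2% GC, stood at -0.97 in the same library, where the trend was -0.09. With the trend removed from every library, the log2 fold change was 1.12 for MT1E (adjusted p = 0.0617), 2.04 for MT1X (adjusted p = 0.0456) and -0.50 for SLC30A1 (adjusted p = 0.218) with edgeR. In that fit MT1X, which passed the filter through RIPK4.si alone, was the only member called, against 2.91% of all genes tested. With a replicate block added to it, MT1X had an adjusted p of 0.0587 and MT1E of 0.0389.  With the length trend removed instead, MT1E had 1.14 (adjusted p = 0.129) and MT1X 2.03 (adjusted p = 0.0788).

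Per kb of the canonical transcript, MT2A stood first in neg.si with 352 ± 99.4 CPM per kb, followed by MT1E (16.1 ± 4.04), SLC30A1 (13.1 ± 3.81) and MTF1 (2.91 ± 0.393), all SD with n = 3. Then came MT3 (2.15 ± 1.498), MT1M (0.794 ± 0.433), MT1X (0.614 ± 0.0926), MT1F (0.256 ± 0.124) and MT1G (0.0783 ± 0.0768). MT2A was apart from all others. The neg.si libraries of MT1E and SLC30A1 overlapped, as did those of MTF1 and MT3, of MT3 and MT1M, of MT1M and MT1X, and of MT1F and MT1G. When the length of all annotated exons was used, MT1E and SLC30A1 changed places, as did MT3 (0.520) and MT1M (0.618). In RIPK4.si, MT1E was at 34.1 ± 11.3 and SLC30A1 at 8.88 ± 1.75 CPM per kb, and MT1X at 2.51 ± 1.03 CPM per kb was above MT1M at 0.785 ± 0.102. With the length of all annotated exons, MT1M (0.612) was above MT1X (0.586) in RIPK4.si.

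The share that MT1E took of the counts of all 7 metallothioneins was apart between the groups, while the summed levels overlapped. The shares add up to the whole in each library, so a higher share of MT1E and a lower share of MT2A are not separate results. Summed over the 7 genes, the level was 178, 182 and 104 CPM in neg.si and 117, 168 and 178 CPM in RIPK4.si. The means were 155 ± 43.5 CPM in neg.si and 154 ± 33.0 CPM in RIPK4.si (SD, n = 3 each), a ratio of 0.998 (two-sided exact permutation test, p = 1), and 0.859 to 1.12 with 1 library left out. This sum was mostly MT2A, and without MT2A the other 6 genes had 13.6 ± 3.79 CPM in neg.si and 28.4 ± 8.58 CPM in RIPK4.si (ratio 2.09, exact permutation p = 0.1). MT1E alone made up 12.0 CPM of this remainder in neg.si and 25.5 CPM in RIPK4.si. The ratio of the remainder therefore mostly restates that of MT1E (2.12) and is not a result about all 6 genes. MT1E took 7.35%, 7.91% and 8.26% of the summed metallothionein counts in neg.si and 13.9%, 19.4% and 15.4% in RIPK4.si. The neg.si shares lay within 1 percentage point of each other, and each RIPK4.si share was above all of them. The exact 95% interval from counting reached up to 9.25% in the neg.si libraries and down to 12.7% in the RIPK4.si libraries. The difference in means was 8.42 percentage points (exact permutation p = 0.1, two-sided, which 3 libraries against 3 cannot go below, and 0.175 adjusted over the 7 shares).

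The share of MT2A was 91.8%, 90.8% and 91.0% in neg.si and 83.8%, 78.7% and 82.9% in RIPK4.si, with no overlap (exact permutation p = 0.1, adjusted 0.175). MT1X took 0.164%, 0.128% and 0.211% in neg.si and 0.467%, 0.680% and 0.757% in RIPK4.si, also with no overlap (exact permutation p = 0.1, adjusted 0.175). MT1G, with at most 8 counts in a library, took 0%, 0.0183% and 0.0603% in neg.si and 0.117%, 0.144% and 0.144% in RIPK4.si (exact permutation p = 0.1, adjusted 0.175). The shares of MT3, MT1F and MT1M overlapped (exact permutation p = 0.4, 0.4 and 0.9). Shares within a library do not depend on how libraries are scaled to each other. In neg.si replicate 3, where both MT1E and MT2A were low in CPM, the MT1E counts were 9.08% of the MT2A counts, beside 8.003% and 8.71% in the other neg.si libraries and 16.6%, 24.7% and 18.6% in RIPK4.si.

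**Figure D3:**
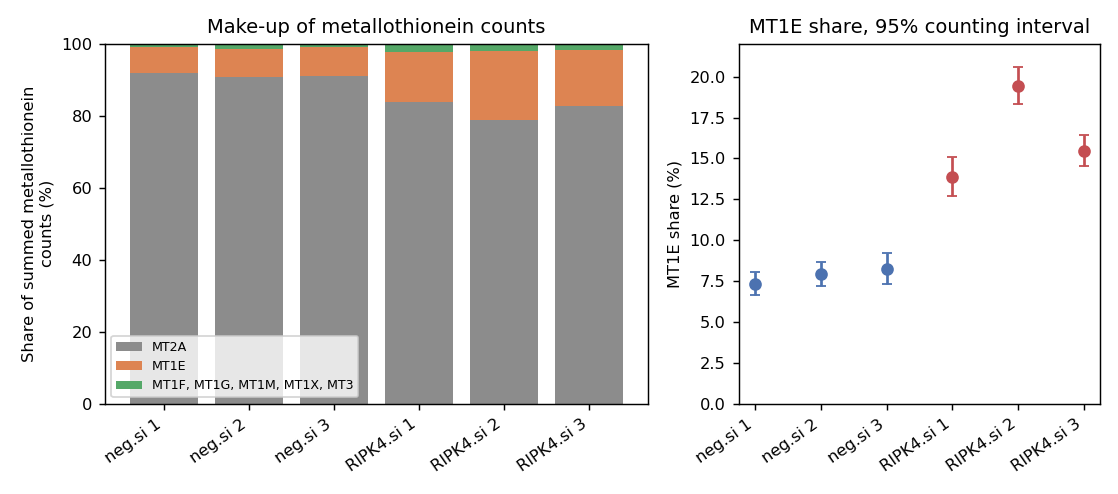
Left, share of each library's summed metallothionein counts (y axis, percent) taken by MT2A, MT1E and the other 5 metallothioneins together. Right, the MT1E share (percent, from 0) with its exact 95% counting interval. MT1E holds 7.35% to 8.26% in the 3 neg.si libraries and 13.9% to 19.4% in the 3 RIPK4.si libraries.

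Along the cluster the table held 9 genes, the 7 metallothioneins named above and the pseudogene MT1L and the gene MT1A. MT1L lies 28.4 kb from the first base of MT3, between MT2A and MT1E. It had 1.81, 1.73 and 1.23 CPM in neg.si and 2.22, 3.36 and 2.99 CPM in RIPK4.si, apart between groups, with a log2 fold change of 0.84 (SE 0.271, adjusted p = 0.249 with edgeR). MT1A had 1, 2 and 0 counts in neg.si and 3, 7 and 5 counts in RIPK4.si, a ratio of 5.19 (exact 95% interval 1.47 to 28.0). Every RIPK4.si library lay above every neg.si library for MT1L, MT1E, MT1A, MT1G and MT1X, and the groups overlapped for MT3, MT2A, MT1M and MT1F. MT1A and MT1G were below the filter and MT1X passed it through RIPK4.si alone, so this is a description, and no count over the cluster is set against all genes. These genes are close relatives in sequence. Apart from MT1X, no metallothionein member had a 100-base window that occurred exactly in an annotated transcript of another gene. Only exact matches were searched, so reads placed on a relative with mismatches were not assessed. How read pairs with several matches were handled is not given in the sources used here.

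**Figure D4:**
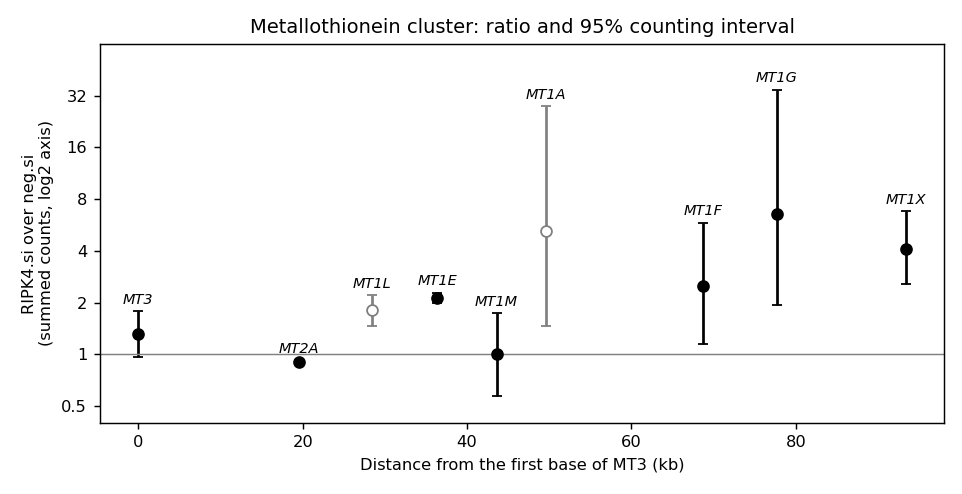
Ratio of summed counts, RIPK4.si over neg.si, scaled to library size (y axis, log2 axis) against the distance of each gene from the first base of MT3 (x axis, kb), with exact 95% counting intervals that leave out the spread between cultures. Filled points are members and open points MT1L and MT1A. The intervals of 6 genes lie above 1, those of MT3 and MT1M hold 1, and that of MT2A lies below 1.

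A further 5 lists of genes around zinc, copper and the known inducers were read from the same fit. Over all genes tested, 1768 of 16297 had an unadjusted p under 0.05 with edgeR, 790 with a positive and 978 with a negative fold change, and DESeq2 called 2.91% of those with an adjusted p-value. The SLC30 family carries zinc out of the cytosol, into organelles or out of the cell. Beside SLC30A1, 6 of 9 genes were tested and none was called by edgeR or DESeq2, with none at an unadjusted p under 0.05. Their log2 fold changes lay between -0.10 and 0.32. The smallest p-values belonged to SLC30A4 (0.32, adjusted p = 0.829), SLC30A2 (0.27, adjusted p = 0.897) and SLC30A5 (0.12, adjusted p = 0.915) with edgeR.

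Of the SLC39 family, which brings zinc into the cytosol, 11 of 14 genes were tested. None was called by edgeR, 3 had an unadjusted p under 0.05, and DESeq2 called 1. That gene was SLC39A8, an importer of zinc and manganese, with 3.65, 3.93 and 3.46 CPM in neg.si and 6.07, 7.96 and 6.24 CPM in RIPK4.si. The groups were apart, and the log2 fold change was 0.88 (SE 0.200, adjusted p = 0.0978 with edgeR and 0.0171 with DESeq2, between 0.0171 and 0.398 across settings). SLC39A14, whose protein imports zinc and iron, had 100.03 ± 5.35 CPM in neg.si and 76.1 ± 4.30 CPM in RIPK4.si (log2 fold change -0.40, adjusted p = 0.301 with edgeR). SLC39A7, which releases zinc from the secretory pathway, had 76.3 ± 7.06 CPM and 99.7 ± 13.6 CPM (0.39, adjusted p = 0.403). Both were apart between groups.

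Of the copper handling genes, 11 of 13 were tested and none was called by edgeR or DESeq2, with 1 at an unadjusted p under 0.05. This was ATP7B, a copper pump, with 5.51 ± 0.241 CPM in neg.si and 4.04 ± 0.206 CPM in RIPK4.si (log2 fold change -0.45, adjusted p = 0.405 with edgeR). The next were COX11 (-0.26, adjusted p = 0.770) and SLC31A1, the main copper importer (-0.34, adjusted p = 0.815). The log2 fold changes of 9 of the 11 genes were below 0, with a median of -0.12, beside 8701 of 16297 and a median of -0.02 over all genes tested.

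The list of glucocorticoid-inducible genes also held NR3C1, the gene of the glucocorticoid receptor itself. Of its 12 genes 11 were tested, with a median log2 fold change of 0.09. None was called by edgeR, 3 had an unadjusted p under 0.05, and DESeq2 called ANGPTL4, whose protein inhibits lipoprotein lipase. ANGPTL4 had 103, 82.3 and 45.6 CPM in neg.si and 198, 256 and 190 CPM in RIPK4.si, with log2 fold change 1.48 (SE 0.277, adjusted p = 0.0518 with edgeR, 3.46e-05 with DESeq2), with edgeR's adjusted p at 0.0135 to 0.279 when 1 library was left out. It passed the threshold in 9 of 15 alternatives. SGK1, a kinase, had 0.54 (adjusted p = 0.190), and TFCP2L1, a transcription factor, -0.58 (adjusted p = 0.204).

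Among genes that oxidants and heavy metals induce, 13 of 14 were tested, 1 was called by edgeR, against 0.767% of all genes tested, and 4 had an unadjusted p under 0.05, all with a positive fold change. HSPB1, which encodes a small heat shock protein, rose from 54.8, 36.9 and 27.4 CPM in neg.si to 94.6, 101 and 96.2 CPM in RIPK4.si. The log2 fold change was 1.30 (SE 0.235, adjusted p = 0.0480 with edgeR and 5.77e-05 with DESeq2), and edgeR's adjusted p was between 0.165 and 0.308 without RIPK4.si replicate 1, 2 or 3 or neg.si replicate 2. It was 0.0510 when genes needed 10 counts or more in each library. GCLC, a subunit of the enzyme that starts glutathione synthesis, had 11.4 ± 2.24 CPM and 15.8 ± 0.616 CPM (0.48, adjusted p = 0.367). HMOX1, which encodes the heme oxygenase that oxidants and metals induce, had 9.86 ± 1.25 CPM and 13.2 ± 1.02 CPM (0.42, adjusted p = 0.412). The list's median was 0.21, beside -0.02 over all genes tested. Log2 fold changes were above 0 for 9 and below 0 for 4 of its 13 genes. The lowest was SLC7A11 (-0.76, adjusted p = 0.570 with edgeR). The other heat shock genes of the list were HSPA1A (-0.06), HSPA1B (0.01), DNAJB1 (0.11) and HSPH1 (-0.15), and none of these was called by edgeR or DESeq2.

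**Figure D5:**
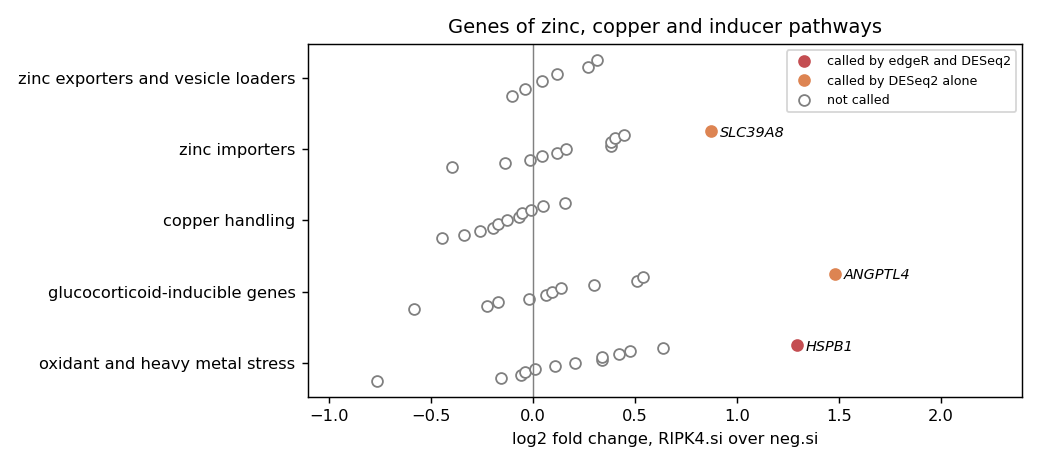
Log2 fold change (x axis, RIPK4.si over neg.si) of each tested gene in 5 lists (rows), with points spread vertically for legibility. HSPB1 is the gene called by the main edgeR fit as well as DESeq2. SLC39A8 and ANGPTL4 are called by DESeq2 and not by the main edgeR fit, although edgeR called both under some alternatives. The open points are called by neither DESeq2 nor the main edgeR fit.

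The mean standardized level of MT1E, MT1X, MT2A and MT3 weighs these 4 genes equally, although MT2A held most of the counts. They did not share a common pattern. Over the 6 libraries the correlation of log2 CPM was 0.93 for MT1E and MT1X, and 0.07 to 0.48 for the other pairs. MT1X also passed the filter through RIPK4.si alone. Other genes were ranked by Pearson correlation of log2 CPM over the 6 libraries with this mean. Among the highest were FOXD1 (0.996), PDGFRB (0.995), EHD3 (0.993) and SLC7A8 (0.988). This averaged level was lowest in neg.si replicate 3 and highest in RIPK4.si replicates 2 and 3, and FOXD1 followed it with 1.87, 2.43 and 0.944 CPM in neg.si and 1.94, 2.98 and 3.22 CPM in RIPK4.si. Of 13447 genes compared, 1.79% had a correlation over 0.9, and none of these 4 named genes was called by edgeR, with adjusted p-values from 0.613 to 0.835. Without neg.si replicate 3, the correlation was 0.985 for FOXD1, 0.924 for PDGFRB, 0.967 for EHD3 and 0.917 for SLC7A8, and FOXD1 ranked 12 and SLC7A8 239 among all genes compared.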

How the data were processed

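The poly(A) fraction of RNA from 6 WM266.4 cultures was sequenced as 100-base read pairs on the BGISEQ-500. The authors trimmed adapters with Cutadapt, aligned with TopHat to GRCh38.p13 and counted pairs per gene with HTSeq, ignoring strand. The deposited counts are whole, not normalized, and cover genes with a total of at least 6. The deposited signal values are counts over DESeq2 size factors. The deposited fold and log2 fold changes, standard errors and p-values are the authors' DESeq2 results and were not used.

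Counts were fitted with edgeR 4.0.16 in R 4.3.3 (TMM, filter on low counts, quasi-likelihood test of condition, Benjamini-Hochberg adjustment over 16297 genes), a test also checked on simulated data. Standard errors are the fold change over the square root of F. The alternatives were DESeq2 1.42.0, DESeq2 size factors, upper-quartile normalization, no filter, at least 10 counts in every library, a replicate block, removing the trend of level on GC content or exon length within each library (lowess, span 0.3), and each library left out in turn. Lengths, GC content and overlaps came from GENCODE 44, in which 24416 of the 24526 identifiers were found, and promoters from RefSeq. Single values over libraries were tested by exact permutation with scipy 1.17.1.

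Members and lists were chosen with earlier results of these data known. Named genes were the members, other metallothionein loci, RIPK4, called genes and the 3 smallest p-values of each list, and the 5 genes most like the metallothioneins, of which 1 is not reported here. Of the metallothionein loci looked up beside the members, 3 of 17 were in the table, and the pseudogene MT1XP1 had 0, 1 and 1 counts in neg.si and 5, 0 and 0 in RIPK4.si. The study calls the 3 samples of a group biological replicates and independent experiments, and p-values measure the spread between these samples.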

Additional observations from a re-analysis of the deposited data

How the results depend on the processing

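Of 95 member fold changes recomputed under up to 15 alternatives, 88 kept their direction and side of the threshold, 4 passed the threshold (MT1E and MT1X with DESeq2, MT1X with the GC trend removed, MT1E with the replicate block and the GC trend removed) and 3 changed sign, all with 1 library left out (MT3, from -0.041 to 1.02, and MT1M, from -0.32 to 0.092). The correlation of MT1E and MT2A over libraries was -0.16 without neg.si replicate 3 (chosen after seeing the data). The number of members called was 2 with DESeq2, 1 with the GC trend removed and 1 with the block as well. Over all genes, 125 calls became 437 with DESeq2, 475 with the GC trend removed, 453 with the block as well, and 0 to 295 with 1 library left out (295 and 70 when neg.si replicate 3 or 1 was dropped, 4 when RIPK4.si replicate 2 was, and 0 for each of the others). The ratio of summed metallothionein levels was 2.09 without MT2A in the sum, where most of the rest is MT1E, and 0.859 to 1.12 with 1 library left out. Calls among zinc importers were 1 with DESeq2, 1 with the GC trend removed and 1 with the block as well. Among glucocorticoid-inducible genes they were 1 with each of DESeq2, upper-quartile normalization, no filter, the replicate block, the GC trend removed (with and without the block) and the length trend removed, and 0 to 1 with 1 library left out. Among oxidant and metal stress genes they were 0 when genes needed 10 counts or more in each library and 0 to 1 with 1 library left out. Deviations of same-numbered libraries had correlations of -0.24, 0.25 and 0.35, and those of other pairs -0.50 to 0.41. These deviations are taken from each group's own mean, so the values depend on each other and cannot decide whether libraries were paired. The sources used here do not say that equal numbers mark the same experiment, so the numbers were not taken as pairs. The replicate block gave 131 calls over all genes and adjusted p-values of 0.108 for MT1E and 0.120 for MT1X with edgeR. MT1F, MT1G, MT1M and MT1A are limited by depth, with no more than 15 counts in any library.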
